A study of Mus musculus with 10 samples.

Results

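The 9 genes described here encode secreted signals of the cortical hem and of the telencephalic wall around it. They are the 6 Wnt ligand genes Wnt2b, Wnt3a, Wnt5a, Wnt7a, Wnt7b and Wnt8b, and the 3 R-spondin genes Rspo1, Rspo2 and Rspo3. They were taken by gene symbol, and all 9 have a row among the 14796 named genes measured. RNA sequencing was done on total RNA from whole mouse telencephalon, the forebrain vesicle from which the cortex and the basal ganglia develop, at embryonic day 12. The 10 samples were 5 wild types, 2 samples with a null allele of Polr1a and 3 samples with a missense allele of Polr1a, p.C1559F. The Polr1a protein is the largest subunit of the polymerase that makes ribosomal RNA, RNA polymerase I. The labels give no strain, no zygosity of the sequenced embryos and no litter, and do not say whether a sample is 1 embryo or a pool. Titles that start with Polr_2048 belong to wild types 1 and 2 and both null samples, called the null set here, and those that start with Polr_2138 to wild types 3, 4 and 5 and the 3 missense samples, the missense set. What these title numbers stand for is not given, so mutants were set against wild types of their own set, and no control sample is shared between the comparisons.

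The cortical hem is a strip of neuroepithelium along the medial edge of the developing cortex, next to the choroid plexus. It secretes Wnt and Bmp proteins, and Wnt3a from the hem is required for the hippocampus to form in the mouse. Wnt ligands bind Frizzled receptors with Lrp5 or Lrp6 and stabilise beta-catenin, which acts with TCF/LEF factors on target genes. R-spondins bind Lgr4, Lgr5 and Lgr6 and remove the ubiquitin ligases Rnf43 and Znrf3 from the cell surface, so that more Frizzled stays there. Wnt2b, Wnt3a, Wnt5a and Wnt8b are known from the hem, whereas Wnt7a and Wnt7b are known more widely from the cortical wall.

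The deposited values are levels on a log2 scale, normalised by the authors, and whether they are corrected for gene length is not given, so levels are compared between samples of 1 gene and not between genes. A gene was called at a limma p under 0.05 after Benjamini-Hochberg adjustment over all 14796 genes. Polr1a itself stood at 5.38 in both null-set wild types and at 4.99 and 4.82 in the null samples. It stood at 5.62, 5.51 and 5.64 in the missense-set wild types and at 5.09, 5.66 and 5.79 in the missense samples. The Polr1a difference was -0.48 (SE 0.20, limma adjusted p = 0.563) for null and -0.08 (SE 0.16, limma adjusted p = 0.964) for missense, so neither passed the test. A missense transcript would still be counted as Polr1a. Emx1 and Emx2, transcription factors that mark the dorsal telencephalon, were at 5.45 or above and at 6.27 or above in every sample.

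Wnt8b rose in the null samples, and 1 of the 9 genes was called in that comparison, against 0.162% of all genes. In the missense samples 0 of the 9 were called, against 0.0203% of all genes. When the 2 effects were averaged, Wnt8b and Rspo3 were called higher and Wnt7a lower, which is 3 of 9 against 0.27% of all genes. At an unadjusted p under 0.05, 7 of the 9 genes were higher and 1 lower in null, against 5.04% and 3.28% of all genes. The same counts in missense were 3 and 1, against 3.2% and 2.33%. The median log2 change of the 9 genes was 0.83 in null and 0.28 in missense, beside 0.03 and 0.02 over all genes. Of the 9 genes, 8 were higher in null and 7 in missense, beside 54.6% and 54.0% of all genes. The genes were chosen with earlier results of these data known, so these comparisons with all genes are descriptions and not tests.

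**Figure D1:**
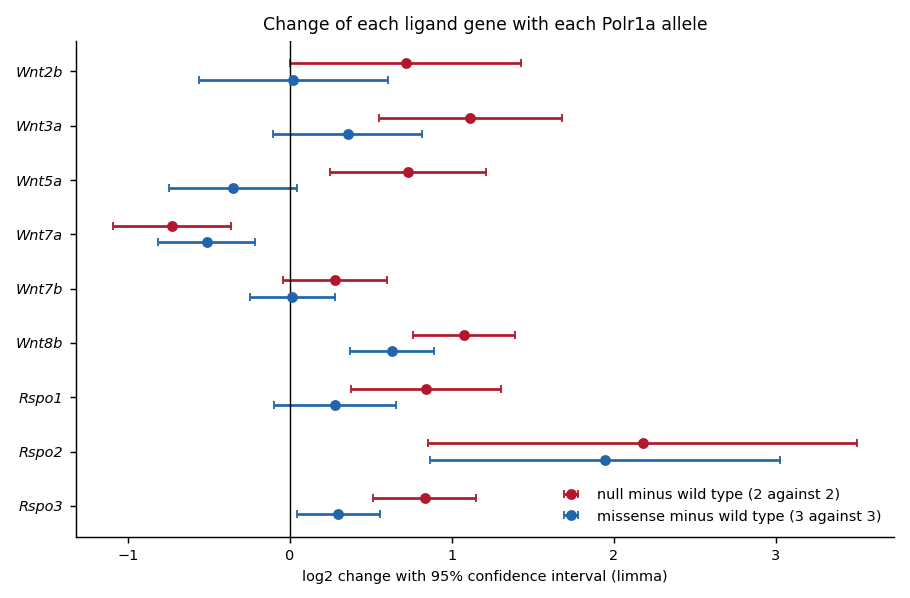
Log2 change of each of the 9 genes (horizontal axis) in null and in missense samples against the wild types of the same title number, with 95% confidence intervals from limma. The intervals of Wnt8b, Rspo2 and Rspo3 lie wholly above 0 and those of Wnt7a wholly below 0 with both alleles. The change of Wnt5a lies at 0.73 with the null and at -0.35 with the missense allele.

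Promoter sequences were available from RefSeq for 5 of the 9 genes, as the 250 bases before the annotated start in build GRCm38.p6, matched by symbol. Wnt5a, Wnt7b, Rspo2 and Rspo3 had no entry. The sequences of Wnt8b, Wnt3a and Wnt7a are shown because these genes separated mutants from wild types with both alleles and differ in base composition. Capitals mark the GC box, GGGCGG, searched on both strands, so that it also reads CCGCCC, and neighbouring matches can overlap. The windows are chr19:44493222-44493471 on the plus strand for Wnt8b, chr11:59290752-59291001 on the minus strand for Wnt3a and chr6:91411354-91411603 on the minus strand for Wnt7a, each written 5′ to 3′ on the strand of its gene.
Wnt8b: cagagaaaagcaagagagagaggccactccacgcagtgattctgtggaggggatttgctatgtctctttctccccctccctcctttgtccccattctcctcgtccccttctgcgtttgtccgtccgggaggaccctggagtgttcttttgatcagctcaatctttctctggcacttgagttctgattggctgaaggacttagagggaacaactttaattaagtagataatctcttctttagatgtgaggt
Wnt3a: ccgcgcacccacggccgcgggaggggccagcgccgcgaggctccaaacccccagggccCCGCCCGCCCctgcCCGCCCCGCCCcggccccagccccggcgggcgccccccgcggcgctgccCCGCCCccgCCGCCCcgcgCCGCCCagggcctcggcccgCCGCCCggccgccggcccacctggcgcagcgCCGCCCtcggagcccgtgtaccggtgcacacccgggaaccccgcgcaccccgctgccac
Wnt7a: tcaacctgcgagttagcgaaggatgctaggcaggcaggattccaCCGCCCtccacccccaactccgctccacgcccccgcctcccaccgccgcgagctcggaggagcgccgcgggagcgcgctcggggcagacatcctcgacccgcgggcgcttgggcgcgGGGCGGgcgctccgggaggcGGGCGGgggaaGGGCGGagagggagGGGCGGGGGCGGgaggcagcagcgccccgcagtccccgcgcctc

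The Wnt8b window holds 48.4% G and C, 5 CpG pairs and 0 GC boxes. The Wnt3a window holds 87.6% G and C, 41 CpG pairs and 9 GC boxes, and the Wnt7a window 77.6%, 34 and 6. Wnt2b, with 80.8% G and C and 3 GC boxes, and Rspo1, with 66.8% and 0, lie between Wnt8b and Wnt3a in base composition. The median over 27025 promoters was 52.0% G and C, and 32.9% of them hold a GC box. The letters CTTTGAT, a core of the TCF/LEF site, were found in none of the 5 windows and in 3.23% of all promoters. The letters TGGGTGGTC, a core of the GLI site, were also found in none of the 5 and in 0.211% of all promoters.

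Wnt8b encodes a ligand of the hem and the dorsal midline. Its log2 level was 5.42 and 5.61 in the null-set wild types and 6.51 and 6.67 in the null samples. It was 5.62, 5.37 and 5.45 in the missense-set wild types and 6.02, 6.29 and 6.02 in the missense samples. All 5 mutant samples lay above all 5 wild types, and both null samples lay above the 3 missense samples. The change was 1.08 in null (SE 0.14, limma adjusted p = 0.0220), a 2.11-fold higher level with a 95% confidence interval from 1.69 to 2.62. In missense it was 0.63 (SE 0.12, limma unadjusted p = 0.00025, adjusted p = 0.546), the gene of rank 6 by p among all genes. The mean of both effects was 0.85 (SE 0.09, limma adjusted p = 0.00529), and this call held when each of the 10 samples was left out in turn. The null call did not: without wild type 1, wild type 2, null 1 or null 2 the limma adjusted p was 0.0953, 0.0718, 0.0551 or 0.175.

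Wnt3a encodes the hem ligand needed for hippocampal growth. Its log2 level was 3.12 and 2.57 in the null-set wild types and 3.90 and 4.01 in the null samples. In the other set the wild types stood at 3.21, 3.05 and 3.46 and the missense samples at 3.80, 3.5 and 3.49. Mutants lay above wild types without overlap in both sets, but missense 3 lay just above the highest wild type. The difference was 1.11 in null (SE 0.26, limma adjusted p = 0.165) and 0.36 in missense (SE 0.21, limma adjusted p = 0.902), so neither was called.

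For Wnt2b and Wnt5a, the gap between the wild types of both sets was about as large as that between null and wild type. Wnt2b, a canonical ligand of the hem, stood at 2.61 and 3.17 in wild types and at 3.29 and 3.93 in null samples of the null set. In the missense set it stood at 3.66, 3.61 and 4.10 in wild types and at 4.23, 3.63 and 3.57 in missense samples. The null samples of Wnt2b lay within the range of the missense set or below it, and missense and wild type overlapped. Its difference was 0.71 in null (SE 0.32, limma adjusted p = 0.599), 0.02 in missense (SE 0.26, limma adjusted p = 0.994) and 0.90 between the wild types (SE 0.30, limma adjusted p = 0.516). With no title number in the model the null value of Wnt2b was 0.18. It was also 0.43 without wild type 1 and 0.39 without null 2.

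Wnt5a encodes a ligand known mainly for signalling without beta-catenin, and head mesenchyme makes it too. It stood at 4.75 and 5.23 in wild types and at 5.59 and 5.85 in null samples of the null set. In the missense set it stood at 5.49, 5.79 and 5.95 in wild types and at 5.18, 5.67 and 5.33 in missense samples. Both null samples lay above their wild types, whereas each missense sample lay below the mean of its own, with overlap. The difference was 0.73 in null (SE 0.22, limma adjusted p = 0.348), -0.35 in missense (SE 0.18, limma adjusted p = 0.902) and 0.75 between the wild types (SE 0.20, limma adjusted p = 0.472). The null effect exceeded the missense effect by 1.08 (SE 0.28, limma adjusted p = 0.773), which did not pass the test. With no title number in the model the null value of Wnt5a was 0.28, the missense value -0.05 and the difference of effects 0.33.

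**Figure D2:**
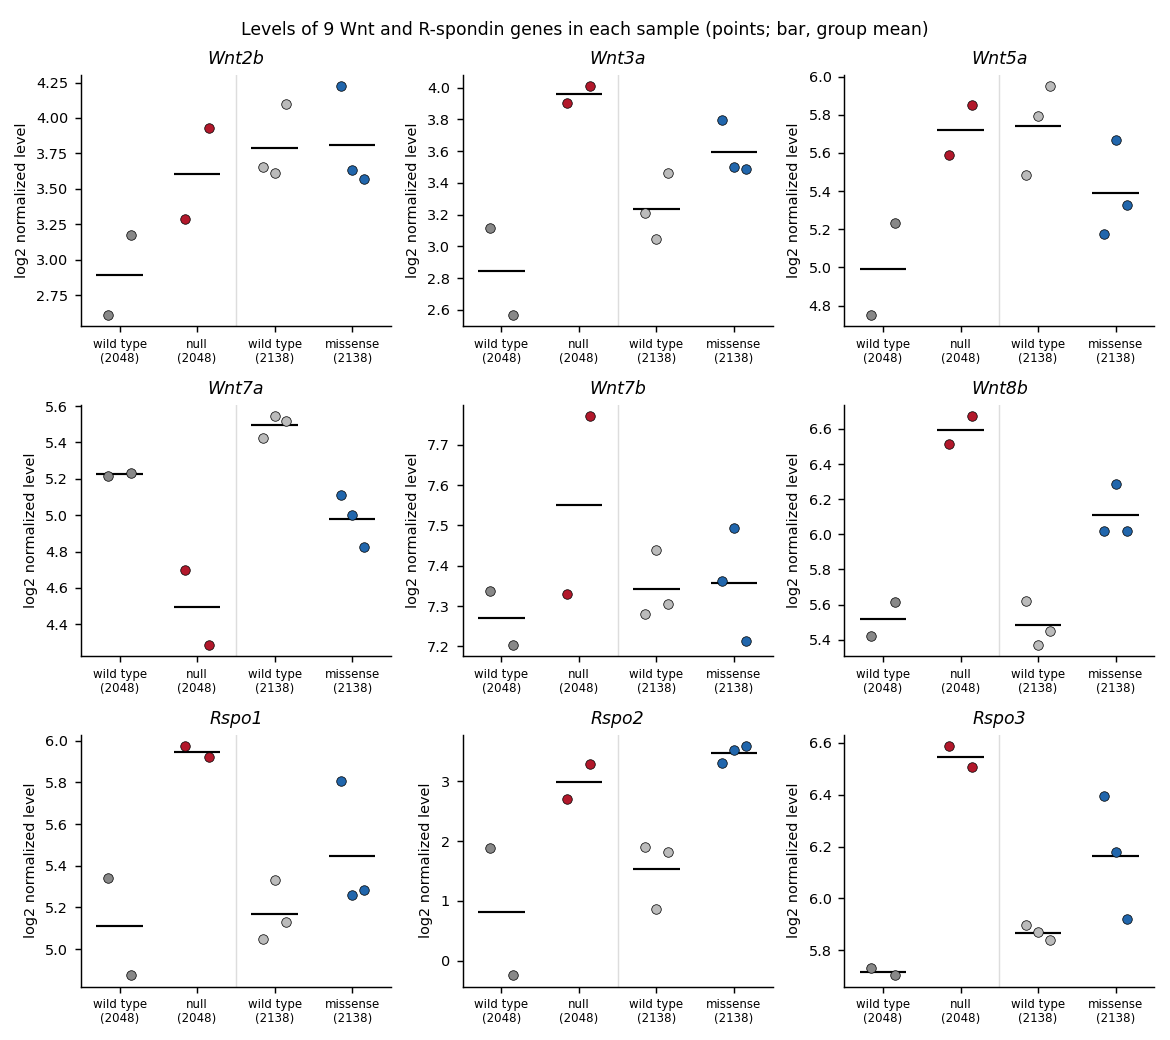
Log2 level of each of the 9 genes in each of the 10 samples (vertical axis, deposited log2 values), by genotype and title number, 1 point a sample with the group mean as a bar. Wnt8b, Wnt3a, Rspo2 and Rspo3 lie higher in mutants than in the wild types of the same number in both sets, Wnt7a lies lower, and Wnt2b and Wnt5a lie higher in the missense-set wild types than in those of the null set.

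Wnt7a, a ligand of cortical progenitors and a signal for brain vessels, was the 1 gene of the 9 whose level was lower with both alleles. Its log2 level was 5.21 and 5.23 in wild types and 4.70 and 4.29 in null samples of the null set. It was 5.42, 5.54 and 5.52 in wild types and 5.11, 5.0 and 4.82 in missense samples of the missense set. All 5 mutant samples lay below all 5 wild types. The difference was -0.73 in null (SE 0.17, limma adjusted p = 0.164) and -0.52 in missense (SE 0.13, limma adjusted p = 0.884). The mean of both effects was -0.62 (SE 0.11, limma adjusted p = 0.0488), just under the threshold. That call held in 1 of the 10 fits that left out a sample, the one without null 1, and the adjusted p reached 0.180 in the others.

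Wnt7b, the close relative of Wnt7a, did not separate the groups. It stood at 7.34 and 7.20 in wild types and at 7.33 and 7.77 in null samples of the null set, and at 7.28, 7.44 and 7.31 in wild types and 7.36, 7.49 and 7.21 in missense samples of the missense set. Only null 2 stood out from the rest. The difference was 0.28 in null (SE 0.15, limma adjusted p = 0.670) and 0.01 in missense (SE 0.12, limma adjusted p = 0.990). The null value of Wnt7b was 0.059 without null 2 and 0.50 without null 1.

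Rspo3, an R-spondin of the hem that is also made by vessels, stood at 5.73 and 5.70 in wild types and at 6.59 and 6.51 in null samples of the null set. In the missense set it stood at 5.90, 5.87 and 5.84 in wild types and at 6.39, 6.18 and 5.92 in missense samples. Mutants lay above wild types in both sets, by a small margin for missense 3. The difference was 0.83 in null (SE 0.14, limma adjusted p = 0.0597) and 0.30 in missense (SE 0.12, limma adjusted p = 0.884). The mean of both effects was 0.56 (SE 0.09, limma adjusted p = 0.0464). Without missense 3 the adjusted p of the mean was 0.0173, and without any other single sample it was above the threshold, up to 0.130. The missense value alone was 0.18 without missense 1.

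Rspo2, an R-spondin also known from limb buds, had the widest spread between samples. Its log2 level was 1.88 and -0.24 in wild types and 2.70 and 3.29 in null samples of the null set. It was 1.90, 0.87 and 1.83 in wild types and 3.31, 3.53 and 3.59 in missense samples of the missense set. All 5 mutant samples lay above all 5 wild types, and wild type 2 was the lowest of the 10. The difference was 2.18 in null (SE 0.60, limma adjusted p = 0.293), 4.52-fold with an interval from 1.80 to 11.3. In missense it was 1.94 (SE 0.49, limma adjusted p = 0.884), 3.85-fold with an interval from 1.82 to 8.15. The mean of both effects was 2.06 (SE 0.39, limma adjusted p = 0.0656), not called. The null value was 1.12 without wild type 2 and 3.24 without wild type 1, and the mean effect without wild type 1 was 2.59 (limma adjusted p = 0.0128).

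Rspo1 stood at 5.34 and 4.88 in wild types and at 5.97 and 5.92 in null samples of the null set. In the missense set it stood at 5.05, 5.33 and 5.13 in wild types and at 5.80, 5.26 and 5.28 in missense samples. The null samples lay above their wild types, while of the missense samples only missense 1 lay above the range of its own. The difference was 0.84 in null (SE 0.21, limma adjusted p = 0.211) and 0.28 in missense (SE 0.17, limma adjusted p = 0.902), and the missense value was 0.10 without missense 1.

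Of the 9 genes, 7 lay above the wild types without overlap in null and 1 below, against 22.9% and 14.8% of all genes. In missense 4 lay above and 1 below, against 6.02% and 4.89%. In both sets at once Wnt3a, Wnt8b, Rspo2 and Rspo3 lay above, 4 of 9 against 2.47% of all genes, and Wnt7a below, 1 of 9 against 1.38%. For genes that separate in both sets, an exact 2-sided permutation of the mean effect within title number can only give the smallest p of its 120 arrangements, 0.0167, so it adds nothing to the lack of overlap. For the other genes the same exact test gave p = 0.05 for Rspo1, 0.217 for Wnt2b, 0.35 for Wnt7b and 0.533 for Wnt5a. The null effect minus the missense effect was called for 0 of the 9, against 0.0135% of all genes. At an unadjusted limma p under 0.05, 4 of the 9 had the larger value in null and 0 in missense, against 2.22% and 1.91% of all genes. The 4 were Wnt3a, Wnt5a, Wnt8b and Rspo3. The 95% confidence interval of that difference was wide for Rspo2, from -1.48 to 1.94. Between the wild types of both sets 0 of the 9 were called by limma, against 0.0946% of all genes. Wnt2b and Wnt5a, 2 of the 9, had an unadjusted limma p under 0.05 there, against 7.37% of all genes.

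**Figure D3:**
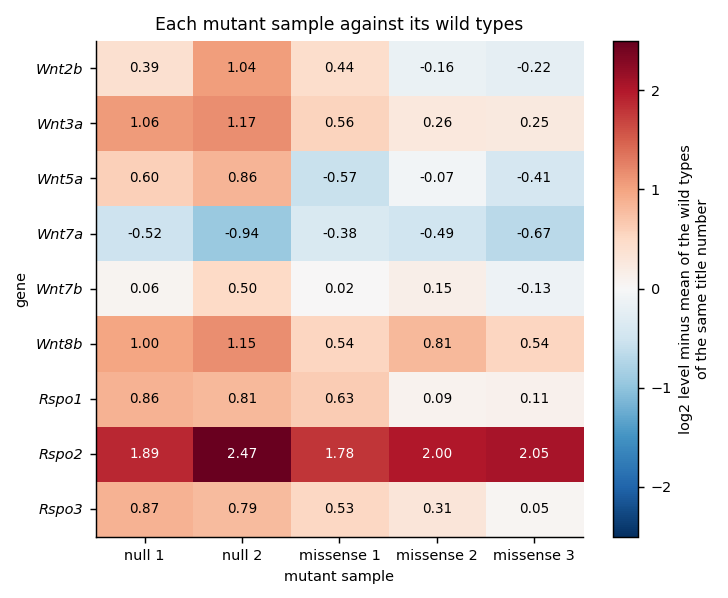
Log2 level of each gene (rows) in each of the 5 mutant samples (columns) minus the mean of the wild types of the same title number, in colour. Wnt8b runs from 0.54 to 1.15 and Rspo2 from 1.78 to 2.47 above, Wnt7a runs from -0.94 to -0.38, and missense 1 is the highest missense sample for Wnt2b, Wnt3a, Rspo1 and Rspo3.

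Across the 10 samples, after centring each title number, several of these genes varied together. Pearson's r was 0.905 for Rspo1 with Rspo3, 0.90 for Wnt3a with Rspo1 and with Rspo3, and 0.887 for Wnt8b with Rspo3. Wnt7a ran against Wnt8b at -0.931 and against Rspo2 at -0.875. These values include the difference between mutants and wild types and are descriptions, since the samples share their sets and scaling. Among 13805 genes compared, those most like Wnt8b were Txlnb at 0.995, Ccdc39 at 0.967 and Glrx at 0.956. Gas6, Sepp1 and Colec12 were most like Wnt3a, at 0.986, 0.965 and 0.962. For Rspo2 they were Spp1 at 0.955, Ppl at 0.952 and Dkk2, a secreted Wnt inhibitor, at 0.950. Rspo3 was followed most closely by Foxp2 at 0.952, Mmp28 at 0.951 and Plek at 0.942. The genes nearest to Rspo1 were Fam46c, Sgk3 and Dixdc1, from 0.954 to 0.932, and those nearest to Wnt7a were Fignl1, Plcxd2 and Prkd1, from 0.964 to 0.947. Wnt2b had Cnih1, Mtmr1 and Tbx18, from 0.941 to 0.925, and Wnt5a had Actg1, Hip1 and G6pdx, from 0.935 to 0.901. The named genes head longer lists. The number of genes with r above 0.9 was 38 for Rspo2, 31 for Wnt8b, 29 for Wnt3a, 21 for Rspo3 and 20 for Wnt7a. It was 13 for Rspo1, 8 for Wnt2b and 3 for Wnt5a.

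The other Wnt and R-spondin genes of the mouse were 12 measured of 14 listed, and 0 of them were called with either allele. In null 10 of the 12 were higher with a median of 0.87, and in missense 8 with a median of 0.22. At an unadjusted limma p under 0.05, 4 were higher in null and 0 in missense. Wnt10b was at the lowest value of the file in wild types 4 and 5, and Wnt1 in missense 3. Wnt3 was at 3.30 and 3.30 in wild types and at 4.28 and 4.19 in null samples, a difference of 0.94 (SE 0.20, limma adjusted p = 0.132). In missense Wnt3 differed by -0.13 (SE 0.16), so its 2 effects differed by 1.07 (SE 0.26, limma adjusted p = 0.724). Wls, the carrier that takes Wnt ligands to the cell surface, differed by 0.91 in null (SE 0.20, limma adjusted p = 0.154) and by 0.06 in missense. Of the 10 secretion and removal genes, 6 were higher in null with a median of 0.18 and 7 in missense with a median of 0.06, with 0 called, and at an unadjusted limma p under 0.05 there were 2 higher in null and 0 in missense.

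Among 17 measured Wnt receptors of 18 listed, 0 were called with either allele, 13 were higher in null with a median of 0.26 and 12 in missense with a median of 0.08. At an unadjusted limma p under 0.05, 4 receptors were higher and 2 lower in null, and 1 was higher and 1 lower in missense. Fzd8, a Frizzled receptor of the anterior neural tube, was at 7.13 and 7.14 in wild types and at 6.38 and 5.73 in null samples. Its difference was -1.08 in null (SE 0.22, limma adjusted p = 0.122) and -0.40 in missense (SE 0.18, limma adjusted p = 0.896). Of the 6 R-spondin receptors and ligases, 4 were higher in null with a median of 0.26 and 5 in missense with a median of 0.12, with 0 called and 1, Rnf43 in missense, at an unadjusted limma p under 0.05. Rnf43, the ligase that R-spondins remove, was at 1.26, 0.56 and 1.06 in wild types and at 3.30, 3.0 and 4.45 in missense samples. Its missense difference was 2.62 (SE 0.43, limma adjusted p = 0.249), and in null it was 0.43 (SE 0.53, limma adjusted p = 0.879). The 2 effects on Rnf43 differed by -2.19 (SE 0.68), with a limma adjusted p of 1.0.

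Secreted Wnt inhibitors, listed together with the membrane proteins Kremen1 and Kremen2, had 12 measured of 16 listed. They were higher in 10 with a median of 0.35 in null and in 9 with a median of 0.33 in missense, with 0 called. At an unadjusted limma p under 0.05, 5 were higher and 1 lower in null, and 3 higher in missense. Sfrp4 of that list was at the lowest value of the file in null 1 and missense 2. Dkk2 was at 4.44 and 3.92 in wild types and at 5.14 and 5.43 in null samples. In the missense set Dkk2 was at 4.43, 4.0 and 4.56 in wild types and at 4.76, 4.89 and 5.10 in missense samples, so mutants lay above wild types in both sets. Its difference was 1.11 in null (SE 0.24, limma adjusted p = 0.132) and 0.59 in missense (SE 0.19, limma adjusted p = 0.884). Of 18 signal transducers, 7 were higher in null with a median of -0.05 and 8 in missense with a median of -0.02, with 0 called, and at an unadjusted limma p under 0.05 there were 3 higher and 2 lower in null and 1 lower in missense. Bcl9l, a transducer, was at the lowest value of the file in wild types 1, 4 and 5, null 1 and missense 1. Of 17 measured feedback targets of 18 listed, 13 were higher in null with a median of 0.37 and 16 in missense with a median of 0.13, with 0 called. At an unadjusted limma p under 0.05, 7 targets were higher and 1 lower in null, and 3 higher in missense. Of these targets, Rnf43, Znrf3, Lgr5, Notum, Dkk1 and Lef1 are also counted in the pathway lists above, so the lists are not independent. Axin2, which Wnt signalling switches on in many tissues, differed by 0.63 in null (SE 0.14, limma adjusted p = 0.165) and by 0.06 in missense (SE 0.12, limma adjusted p = 0.963).

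**Figure D4:**
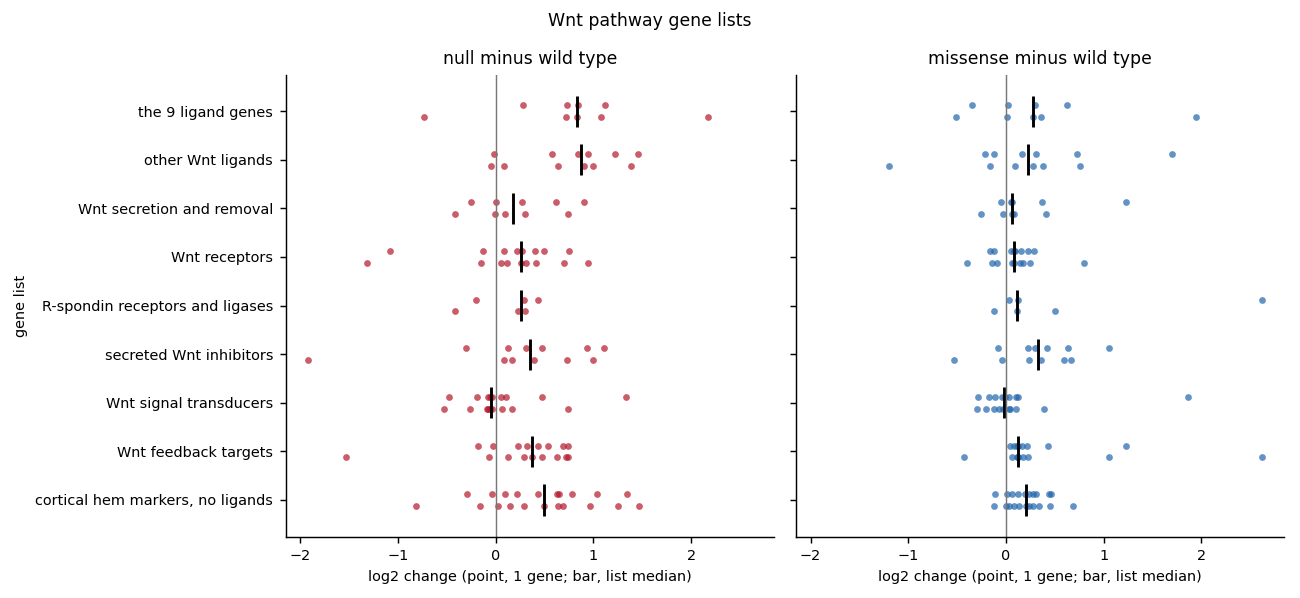
Log2 change (horizontal axis) of each gene of the Wnt pathway lists and of the cortical hem markers, 1 point a gene, with the median of each list as a bar, for null and for missense samples against their wild types. The other Wnt genes have a median of 0.87 in null and 0.22 in missense, and the signal transducers have medians of -0.05 and -0.02.

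Markers of the hem other than these ligands, and of tissue beside it, also differed between the same samples. In bulk samples, more cells of a kind and more RNA per cell cannot be told apart. Of 21 measured hem markers, 17 were higher in null and 19 in missense, with medians of 0.50 and 0.20 and 0 called, and 11 and 2 were higher at an unadjusted limma p under 0.05. Their summed linear level was 1400 to 1419 in wild types and 1718 to 1732 in null, and 1418 to 1557 in wild types and 1474 to 1642 in missense. Gdf7 was at the lowest value of the file in null 1 and Gdf6 in wild type 4. The hem list also holds Lhx2, Emx2 and Dmrta2, which are counted again as dorsal cortical progenitor markers. Lhx2 marks the cortex beside the hem and not the hem, so these counts and sums are not those of the hem alone. Ttr and Lmx1a of the hem list are counted again for choroid plexus, and Zic1 for Cajal-Retzius cells and mesenchyme. The marker lists are therefore not independent of each other, and the hem list is not particular to the hem. Bmp6, a hem ligand of the Bmp family, differed by 1.46 in null (SE 0.30, limma adjusted p = 0.128) and by 0.69 in missense. Of 15 choroid plexus markers, 14 were higher in null and 13 in missense, with summed levels of 144 to 165 against 228 to 276 and of 234 to 260 against 234 to 316. The wild types of the 2 sets differed about as much on this list. There 14 of the 15 were higher in the missense set with a median of 0.72, beside a median of 0.69 in null. Cldn2, a marker of that list, was at the lowest value of the file in 3 samples.

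Mesenchyme and meninges markers were higher in 25 of 25 in null and 23 of 25 in missense. Their summed level was 3210 to 3537 in wild types and 4483 to 5475 in null, and 3234 to 4860 in wild types and 4062 to 5307 in missense. Thalamic eminence and diencephalon markers were higher in 20 of 20 in null, with sums of 448 to 543 against 878 to 1065, and in 9 of 20 in missense, with sums of 453 to 761 against 427 to 739. Microglia markers were higher in 16 of 16 in null and 13 of 16 in missense, with sums of 76.9 to 84.9 against 160 to 163 and of 94.9 to 116 against 133 to 156, and of that list P2ry12 was at the lowest value of the file in wild types 1 and 2 and missense 2, and Tyrobp in wild type 1. Ventral telencephalon markers were lower in 17 of 18 in null and 15 of 18 in missense, and 9 of the 18 fell in null at the threshold. Their sums were 1445 to 1639 against 699 to 737 and 1278 to 1406 against 1071 to 1159. Surface epithelium markers were higher in 12 of 12 in null and 11 of 12 in missense, with sums of 35.1 to 40.5 against 70.2 to 72.8 and of 47.6 to 77.8 against 63.9 to 155, and Cldn6 of that list was at the lowest value of the file in 3 samples. Endothelium markers were higher in 17 of 18 in null, with sums of 448 to 455 against 520 to 609, and in 5 of 18 in missense, with sums of 480 to 526 against 475 to 575.

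Cajal-Retzius markers, of the early neurons that the hem gives rise to, were higher in 11 of 13 in null and 8 of 13 in missense, with sums of 954 to 1008 against 1089 to 1236 and of 1058 to 1168 against 1073 to 1264. In the mean of both effects 10 of the 13 were higher and 3 lower. The 1 called, Cdkn1a, is not particular to these neurons, and it differed by 1.01 (SE 0.18, limma adjusted p = 0.0488). In that mean 6 of the 13 were higher and 0 lower at an unadjusted limma p under 0.05. Ndnf differed by 1.29 (SE 0.32, limma adjusted p = 0.166) and Ebf3 by 0.56 (SE 0.13, limma adjusted p = 0.152), and neither was called. Reln differed by 0.02, Calb2 by -0.18 and Tbr1 by -0.24, so the rise was not shared by every marker of the list. Dorsal cortical progenitor markers were higher in 8 of 15 with each allele, with sums of 4364 to 4449 against 4141 to 4271 in null and of 4203 to 4333 against 4027 to 4221 in missense. Pan-neuronal markers were lower in 12 of 15 with each allele, with sums of 4289 to 4825 against 3605 to 4079 and of 5083 to 5242 against 4363 to 5114. The part of these tissues in the values of the Wnt and R-spondin genes was not tested.

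**Figure D5:**
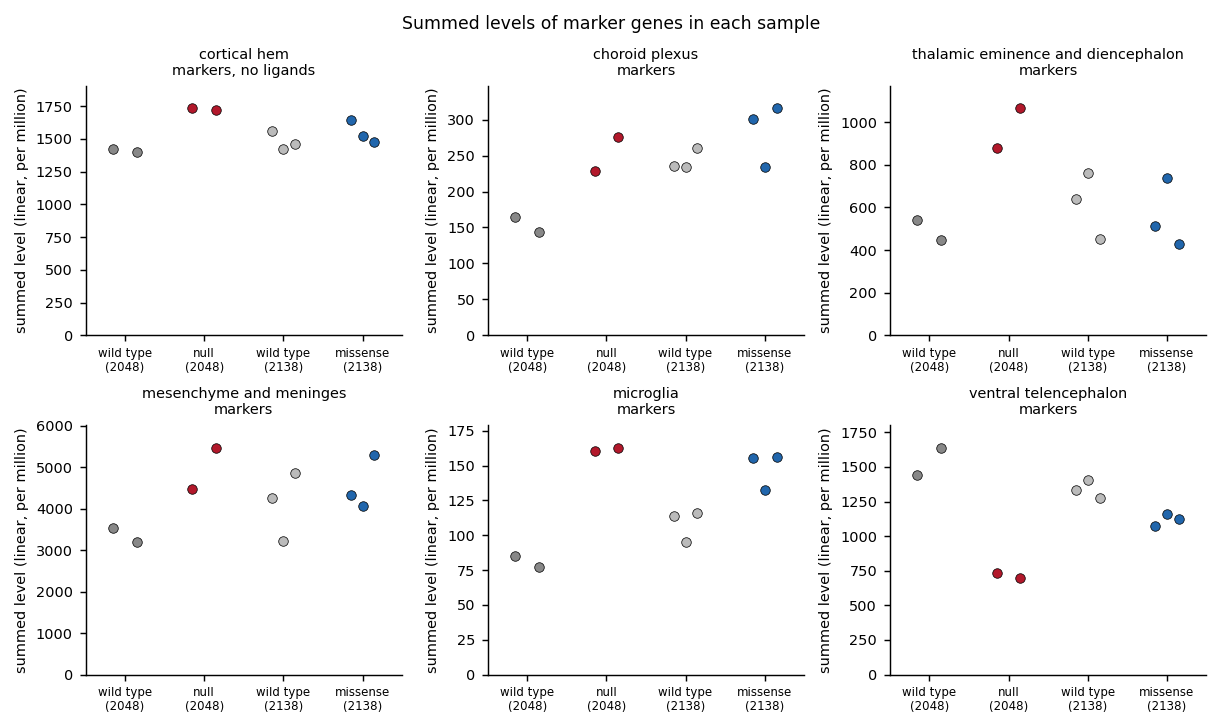
Summed linear level (vertical axis, back-transformed deposited values) of 6 marker lists in each of the 10 samples, by genotype and title number, 1 point a sample. Hem, choroid plexus, mesenchyme, diencephalon and microglia sums are higher and the ventral sum lower in both null samples than in their wild types, and the microglia and ventral sums also separate missense samples from theirs. The choroid plexus sums are also higher in the missense-set wild types than in those of the null set.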

How the data were processed

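Gene expression was measured by RNA sequencing in 10 samples. The authors deposited filtered and normalised log2 values for 14796 named genes and 1 row with no name, which was left out. The unit was read from the values: back-transformed values total 1000453 to 1000891 in each sample, with a floor of -3.16, as for log2 CPM. Depth is unknown, so no counting error is given. The genome build is GRCm39, per the submitters' processing notes, while the aligner, read counter and gene models are not named in these sources.

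The 4 groups, genotype by title number, were fitted to all genes using R 4.3.3 and limma 3.58.1, allowing a variance trend on the level, 6 residual and 4.83 prior degrees of freedom. Tests were 2-sided with Benjamini-Hochberg adjustment over all genes. The p-values reflect only how far these samples spread, which may be technical. Fold changes are on the deposited log2 scale, whose offset understates changes of low genes such as Rspo2. The fit was tested on simulated data. Version 1.17.8 of data.table, Python 3.11.15, pandas 2.3.3 and matplotlib 3.10.9 handled tables and figures.

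Members and lists were chosen with earlier results of these data known. The text names all members and Polr1a, from each list genes called or among the 3 smallest p in a mutant comparison, and the 3 genes most correlated with each member of unadjusted p under 0.05. Emx1 and Emx2 were named as tissue checks after their values were seen. Reln, Calb2, Tbr1, Ndnf and Ebf3 were also named after their values were seen. Some other genes were named only to show what a list holds or shares with another. The values of some genes that meet this rule are left out. Alternatives were no title number, median centring, quantile normalization, a low-level filter that drops genes under percentile 25, a pseudocount of 1, no trend, robust variances, array weights, the samples of 1 set alone, and each sample omitted in turn. A fit that left 1 sample in a group took it to vary like the others.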

Additional observations from a re-analysis of the deposited data

Results flagged for a closer look

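The Wnt5a values lay on opposite sides of the mean of their own wild types with the 2 alleles, with overlap in the missense set. Its log2 level lay above the mean of the wild types in both null samples, by 0.60 and 0.86, and below it in the 3 missense samples, by -0.57, -0.07 and -0.41. The null effect minus the missense effect was 1.08 (SE 0.28, limma unadjusted p = 0.0029, adjusted p = 0.773), which did not pass the threshold over all genes. The wild types differed between sets by 0.75 for the same gene, and allele and title number cannot be told apart. With no title number in the model the Wnt5a values were 0.28 in null and -0.05 in missense.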

How the results depend on the processing

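The direction and side of the threshold held in 757 of 814 alternatives over 45 values of single genes, and 31 lost a call, 7 gained one and 19 turned direction. Wnt8b was called in the mean effect in 18 of 18 alternatives. Of the 9 genes, the number called in null, 1 as reported, was 3 with no title number, 2 with the filter on low levels, 0 with no trend, 0 with 1 title number alone and 0 to 2 with a sample left out. In the mean effect the 3 called became 1 with median centring, 1 with no trend and 1 to 2 with a sample left out. The missense median of 0.28 was 0.15 with the filter, which leaves out Rspo2, and 0.10 to 0.36 with a sample left out. Over all genes, the 24 called in null were 59 with no title number, 6 with no trend, 0 with 1 title number alone and 2 to 23 with a sample left out. The 3 called in missense were 2 to 10 with a sample left out. The 2 called in the difference of effects were 9 with no title number, 1 with median centring, 0 with no trend and 1 to 10 with a sample left out. The 40 called in the mean were 13 with no trend and 10 to 29 with a sample left out, and the 14 called between wild types were 8 with the filter and 7 to 21.

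Values that turned direction were all uncalled. Wnt2b in missense was -0.00692 with median centring, -0.029 with quantile normalization and -0.19 to 0.17 with a sample left out, and Wnt7b in missense -0.011 with median centring and -0.055 to 0.086. The difference of effects was -0.20 for Wnt2b and -0.48 for Rspo2 with no title number, and for Rspo2 -0.011 with a pseudocount of 1 and -0.83 to 1.29 with a sample left out. Between wild types, leaving out a sample gave -0.13 to 0.058 for Wnt8b, -0.17 to 0.29 for Rspo1 and -0.35 to 1.77 for Rspo2. The cause was not tested. No paired analysis was possible because no label ties samples of different groups into pairs, and the sample numbers used here only name samples. With 2 or 3 samples a group and depth unknown, precision is limited: the 95% interval of the Rspo2 null difference ran from 1.80-fold to 11.3-fold.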
